A study of Bos taurus with 16 samples.

Results

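Solute carriers that move ions, metals, nucleosides, nucleotide sugars, vitamins and other solutes were described in bovine endometrium and blastocysts. Their members were every gene whose single symbol in the array's annotation begins with SLC and a family number, leaving out 14 families that carry mainly glucose, amino acids, peptides, monocarboxylates, fatty acids or choline, or that sit in the mitochondrial membrane. The rule used no measured value. It gave 98 genes, measured by 135 probe sets, out of 9155 genes and 13292 probe sets with a single symbol.

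The 16 Affymetrix arrays came from a series on 49 superovulated cows, whose endometrium was brushed with a cytobrush 2 h before insemination (day 0) and again right before the uterus was flushed (day 7). Cows with 0 polymorphonuclear cells (PMN) on the brush were called healthy (HE), and cows with any PMN were called as having subclinical endometritis (SE). Endometrium gave 3 arrays of day 0 HE, 3 of day 0 SE, 2 of day 7 HE and 3 of day 7 SE. Blastocysts flushed on day 7 gave 2 arrays from HE donors and 3 from SE donors. Every cow in every group had been superovulated, and each array carried a pool, of RNA from several cows or of 10 embryos, so a spread between replicates is a spread between pools. Pools hide the single cow, and a brush takes surface cells of mixed type. The values are log2 signals of the GCRMA type, on which a step of 1 is a doubling. A probe set counted as measured, or kept, in a tissue if 2 or more of its arrays read above 4.

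Solute carriers move small charged or polar molecules across membranes along or against a gradient, and each family has its own kind of cargo. Zinc enters the cytosol through the ZIP proteins (family SLC39) and leaves it, to the outside or into vesicles, through the ZnT proteins (family SLC30). In the uterus, epithelial carriers of chloride, bicarbonate and sodium help to set the volume and the pH of the fluid that bathes the early embryo, and the zinc, copper, phosphate and nucleosides of that fluid also pass through solute carriers.

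Just under 1 in 2 of these probe sets was measurable. In endometrium 65 of 135 probe sets (48.1%), for 53 genes, were kept, against 55.9% of all probe sets on the array. In blastocysts 57 were kept (42.2%), for 50 genes, against 45.9% of all. Both tissues kept 49 probe sets for 43 genes, 62 probe sets were kept in neither, and 38 genes had no kept probe set at all. Of the 65 kept in endometrium, 52 were above 4 on all 11 arrays, and 13 passed through only some of the arrays, so that a member low in one group and high in another could pass by the high group alone.

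Zinc and Golgi carriers were the largest groups measured. Of 17 zinc transporter genes, 12 were kept in endometrium and 13 in blastocysts. Of 16 nucleotide sugar and related carriers of the Golgi family SLC35, 13 were kept in each tissue. By contrast only 1 of 8 genes for organic cation and organic anion carriers (all of family SLC22) was kept in either tissue, namely SLC22A5, the carnitine transporter. Of 7 vitamin, folate and haem carriers 1 was kept in endometrium and 2 in blastocysts.

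Some members were measurable in a single tissue. Above 4 on all 11 endometrium arrays and on 0 of the 5 blastocyst arrays were 7 probe sets. These stood for SLC10A3, an orphan relative of the bile acid carriers, for SLC12A2, the sodium-potassium-chloride cotransporter NKCC1, for SLC20A2, a sodium-phosphate cotransporter, for SLC35D2 and for single probe sets of SLC35A5 (2 of them) and SLC39A13, whose other probe sets were kept in both tissues. Above 4 on all 5 blastocyst arrays and on 0 of the 11 endometrium arrays were SLC9A3, the sodium-proton exchanger NHE3, SLC30A2, the zinc exporter ZnT2, SLC39A4, the zinc importer ZIP4, SLC46A1, the proton-coupled folate carrier, and SLC35G1. Further probe sets of SLC9A3, SLC46A1 and SLC35G1 were kept in neither tissue. Because the value distributions of the tissues differ, these are statements about the filter in each tissue and no level was compared between tissues. The 3′ to 5′ difference of the GAPDH control ran from 4.97 to 5.85 in blastocyst pools and from 0.03 to 0.58 in endometrium pools. Its part in what was kept was not tested.

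Between day 0 and day 7 the transporters of the endometrium changed widely, and mostly in the same direction in healthy and SE cows. In HE endometrium 37 of 65 probe sets passed limma's test at an adjusted p under 0.05, of which 18 rose and 19 fell, for 31 of 53 genes. The members' share called was 56.9%, against a background of 45.0% of all 13421 kept probe sets (21.8% that rose and 23.2% that fell). In SE endometrium 40 passed, of which 19 rose and 21 fell, for 34 genes. The share was 61.5%, against a background of 50.1% (26.0% and 24.1%). The share of members called was thus somewhat above that of the array in either status, in a tissue where about 1 in 2 probe sets was called. Pools of the 2 days did not overlap in 50 members in HE (76.9%, against 68.4% of all) and in 43 in SE (66.2%, against 57.9%).

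The HE and the SE comparison take their group means from different arrays. Each probe set's spread was estimated from all 11 endometrium arrays, so calls in the HE and the SE comparison are not independent. In both, 17 probe sets rose (26.2% of the members, against 19.6% of all kept probe sets) and 17 fell (26.2%, against 19.0%), and 0 members were called in opposite directions (background 0.00745%). Another 3 were called in HE alone and 6 in SE alone, and these differences between the statuses did not pass the interaction test. Of those that fell in both, SLC39A2, SLC4A4, SLC17A9, SLC26A11, SLC30A1, SLC39A14 and 1 probe set of SLC35E3 were kept through day 0 pools alone. The background passed the same filter. The median member had a log2 difference of -0.09 in HE and -0.09 in SE (all kept probe sets -0.03 and 0.01). The size of the change was larger than the array's, with a median absolute log2 difference of 0.89 in HE and 0.87 in SE, against 0.59 and 0.60. A change past 2 on the log2 scale was seen in 14 members (21.5%), for 11 genes, against a background of 13.1%.

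**Figure D1:**
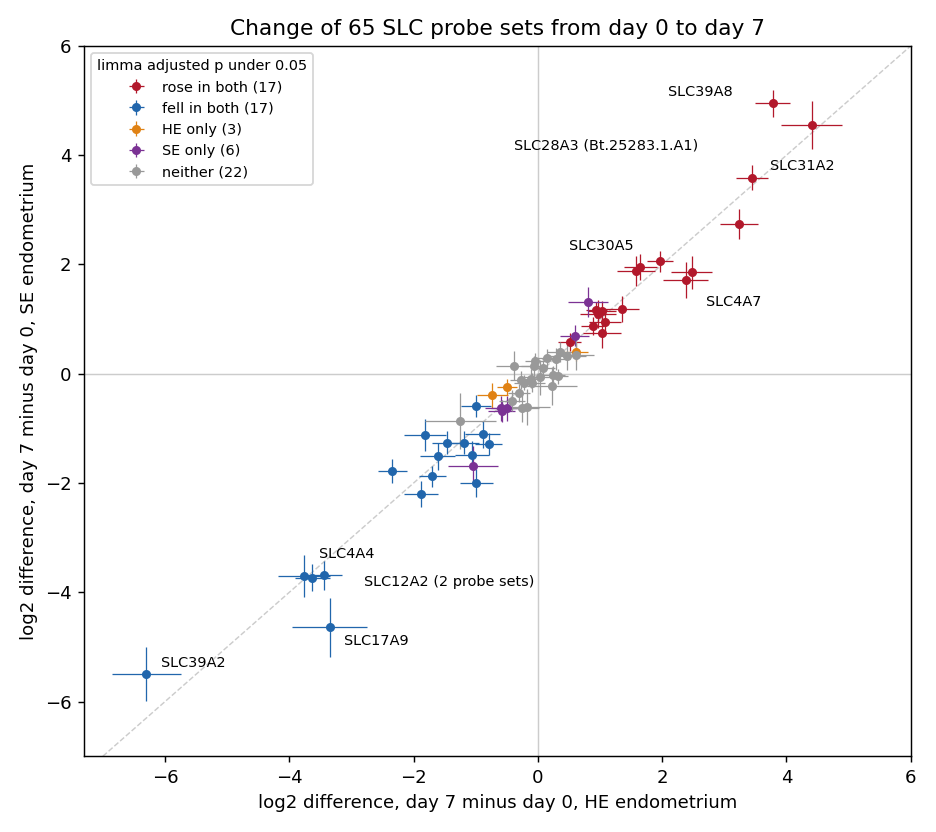
Log2 difference between day 7 and day 0 in HE endometrium (horizontal axis) against that in SE endometrium (vertical axis) for the 65 kept SLC probe sets; points are differences of group means, bars limma's standard errors, colours the call at an adjusted p under 0.05, and the dashed line marks equal change. The points run along the line from SLC39A2, lowest at -6.30 and -5.49, to SLC39A8 and SLC28A3 at the upper right, and 58 of 65 have the same sign on both axes.

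Zinc carriers moved in both directions, and held both the largest fitted fall and one of the largest rises. Of 15 kept probe sets for 12 zinc genes, 4 rose and 5 fell in HE, and 4 rose and 6 fell in SE. For this and the counts by role that follow, the background called was 45.0% of all kept probe sets in HE and 50.1% in SE. Import genes of the ZIP family and export genes of the ZnT family were found on both sides.

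SLC39A8 (ZIP8, an importer of zinc and manganese) rose most in SE cows. Its log2 values were 9.84, 9.24 and 9.54 in the day 0 HE pools and 8.42, 8.95 and 7.92 in the day 0 SE pools. By day 7 they were 13.35 and 13.29 in HE and 13.21, 13.58 and 13.35 in SE. The rise was 3.78 ± 0.28 (log2 difference ± SE, n = 3 and 2 pools; limma adjusted p = 5.37e-06) in HE, or 13.7-fold, and 4.95 ± 0.25 (n = 3 and 3; adjusted p = 3.79e-07), or 30.9-fold, in SE. All day 7 pools lay above all day 0 pools, and the day 7 pools of HE and SE overlapped.

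SLC39A2 (ZIP2, a plasma membrane zinc importer) had the largest fitted fall of any kept member in both statuses. Day 0 values were 9.50, 8.42 and 8.52 in HE and 8.24, 8.54 and 7.21 in SE. On day 7 they were 1.81 and 3.22 in HE and 3.20, 2.20 and 2.13 in SE, so that every day 7 pool was under the filter level of 4. SLC39A2 was thus kept through its day 0 pools alone. The fitted change was -6.30 ± 0.55 in HE (limma adjusted p = 1.34e-05) and -5.49 ± 0.49 in SE (1.12e-05). Set against the filter level in place of the day 7 means, the fall was at least 28.1-fold in HE and at least 16.0-fold in SE. In SE the same bound for SLC17A9 was at least 18.6-fold, so the bounds do not rank SLC39A2 above it there. The fitted HE value of SLC39A2 was -5.60 without day 7 HE replicate 1 and -7.0 without replicate 2.

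The remaining zinc importers that fell were mostly well above background on both days. SLC39A11 (ZIP11) fell by 1.88 in HE and by 2.20 in SE on the log2 scale (limma adjusted p = 3.55e-04 and 4.60e-05), from 9.06 to 9.62 over the 6 day 0 pools to 6.73 to 7.62 over the 5 day 7 pools. SLC39A1 (ZIP1, a widely expressed plasma membrane importer) fell by 1.46 and 1.26 (7.48e-04 and 7.85e-04). SLC39A14 (ZIP14, an importer of zinc, manganese and iron) had fitted falls of 0.99 in HE and 2.00 in SE (limma adjusted p = 0.0148 and 9.56e-05). It was near or under the filter throughout, with 3.29, 3.69 and 4.04 in day 0 HE, 4.72, 5.25 and 4.31 in day 0 SE, and 2.65 to 2.80 on day 7. In HE the means of both days were under the filter, so no fall can be bounded there. In SE the fall was at least 1.69-fold against the filter level.

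On the export side SLC30A5 (ZnT5, which loads zinc into the secretory pathway) rose from 10.42, 10.44 and 10.33 in day 0 HE to 12.22 and 12.48 in day 7 HE, and from 10.28, 10.84 and 10.21 to 12.63, 12.29 and 12.60 in SE. That was a rise of 1.96 ± 0.21 (limma adjusted p = 4.76e-05; 3.88-fold) in HE and of 2.06 ± 0.19 (1.19e-05; 4.18-fold) in SE, with no overlap between days. SLC30A1 (ZnT1, the exporter at the plasma membrane) fell by 0.99 in HE and 0.59 in SE (0.00709 and 0.0417), with all day 7 pools under 4, so that against the filter level the fall was at least 1.59-fold and at least 1.08-fold. SLC30A6, which encodes the usual partner of ZnT5, did not pass (-0.38 and 0.15, limma adjusted p = 0.337 and 0.669).

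Zinc carriers of inner membranes split again. Both probe sets of SLC39A13 (ZIP13, which releases zinc from the secretory pathway) rose, by 1.08 and 1.03 in HE and by 0.94 and 1.14 in SE (limma adjusted p = 0.00727, 0.00394, 0.00741 and 9.12e-04); the first of these HE calls was lost without day 7 HE replicate 2 (0.86, limma adjusted p = 0.0728). SLC39A7 (ZIP7, in the endoplasmic reticulum) had differences of 0.25 and -0.03 and SLC39A9 (ZIP9) differences between -0.05 and 0.33 over 2 probe sets, none of which passed. SLC39A6 (ZIP6) was lower on day 7 in 2 probe sets, of which 1 passed in SE (-0.63, limma adjusted p = 0.0448).

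Of 3 kept copper and iron carriers 1 passed, in HE and in SE. SLC31A2 (CTR2, a copper carrier of inner membranes) was at 7.64, 8.10 and 7.69 in day 0 HE and at 7.60, 8.47 and 7.81 in day 0 SE. It reached 11.05 and 11.46 in day 7 HE and 11.57, 11.59 and 11.48 in day 7 SE. The rise was 3.45 ± 0.26 (limma adjusted p = 5.71e-06; 10.9-fold) in HE and 3.59 ± 0.23 (1.50e-06) in SE, and all day 7 pools exceeded all day 0 pools. SLC31A1 (CTR1, the main copper importer of the cell surface) stayed between 10.83 and 11.28 on all 11 arrays, with differences of 0.09 ± 0.18 and 0.10 ± 0.16. SLC11A2 (DMT1, which takes up ferrous iron) lay between 10.03 and 10.59 on all arrays and differed by -0.11 ± 0.20 and -0.09 ± 0.17; neither passed.

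**Figure D2:**
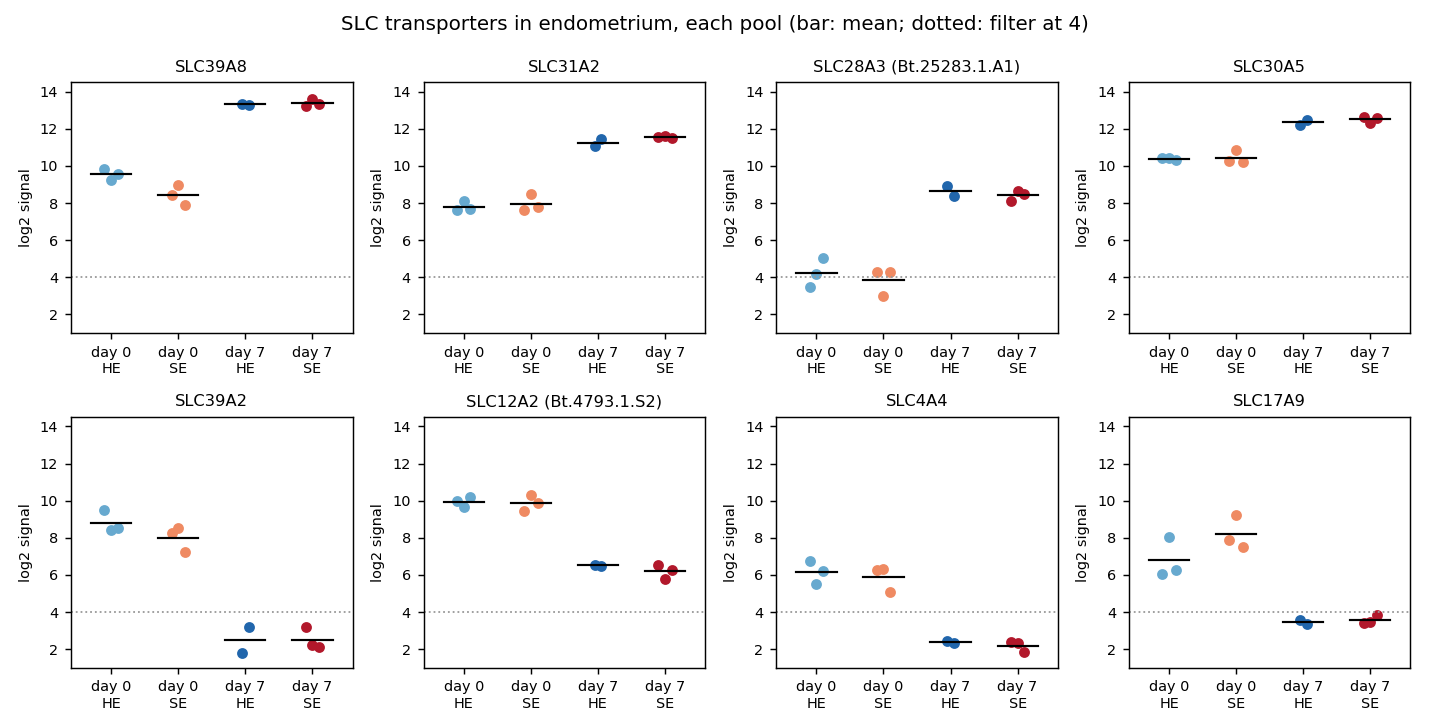
Log2 signal of each endometrium pool for 8 members with large changes, 4 that rose (upper row) and 4 that fell (lower row); points are pools, bars group means and the dotted line the filter at 4. SLC39A2, SLC4A4 and SLC17A9 were below the line in every day 7 pool, and in all 8 members the day 0 and day 7 pools were apart.

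Cation-chloride cotransporters fell, while bicarbonate carriers moved in both directions. All 3 kept probe sets for cation-chloride cotransporters, from 2 genes, fell in HE and in SE, where 23.2% and 24.1% of all kept probe sets fell. SLC12A2 (NKCC1, which loads epithelial cells with chloride for secretion) had 2 probe sets. In the brighter one the day 0 values were 9.97, 9.67 and 10.22 in HE and 9.44, 10.33 and 9.90 in SE, against 6.56 and 6.47 in day 7 HE and 6.55, 5.80 and 6.25 in day 7 SE. The log2 differences were -3.44 ± 0.29 in HE (limma adjusted p = 1.11e-05; a 10.9-fold fall) and -3.69 ± 0.26 in SE (2.38e-06; 12.9-fold), and the other probe set gave -3.63 and -3.73. Every day 7 pool lay more than 2 log2 units below every day 0 pool in both probe sets.

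SLC12A4 (KCC1, the potassium-chloride cotransporter that carries chloride out) fell by 1.82 ± 0.34 in HE and by 1.12 ± 0.30 in SE (limma adjusted p = 0.00162 and 0.0110). The HE value rests on unequal day 7 pools of 3.58 and 4.88: it was -2.47 without day 7 HE replicate 2 and -1.17 without replicate 1, both past the threshold.

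Of 6 kept members that exchange or cotransport bicarbonate, chloride or sulphate, or carry such a name, 2 rose and 3 fell in HE and 3 rose and 2 fell in SE. SLC4A4 (NBCe1, the electrogenic sodium-bicarbonate cotransporter) went from 6.74, 5.51 and 6.23 in day 0 HE and 6.29, 6.33 and 5.06 in day 0 SE to 2.44 and 2.36 in day 7 HE and 2.38, 2.34 and 1.86 in day 7 SE. The fitted differences were -3.76 ± 0.42 and -3.70 ± 0.38 (limma adjusted p = 7.18e-05 and 2.83e-05). Against the filter level this was a fall of at least 4.47-fold in HE and at least 3.71-fold in SE, since no day 7 pool passed 4.

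SLC4A7 (NBCn1, an electroneutral sodium-bicarbonate cotransporter) moved the other way. It rose from between 6.39 and 7.48 over the day 0 pools to between 8.48 and 9.59 over the day 7 pools, by 2.38 ± 0.36 in HE and 1.71 ± 0.33 in SE (limma adjusted p = 5.16e-04 and 0.00167). SLC4A11, a further member of the family, passed in SE only (1.31 ± 0.28, limma adjusted p = 0.00348; 0.81 ± 0.32 and 0.0598 in HE). SLC26A11, a sulphate and anion carrier, had fitted falls of 1.61 and 1.51 to values under 4, or at least 1.91-fold in HE and at least 1.99-fold in SE against the filter level.

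The call for SLC4A2 (AE2, a chloride-bicarbonate exchanger) was fragile. Its differences were 1.03 in HE and 0.75 in SE (limma adjusted p = 0.0210 and 0.0461), with 1 day 0 SE pool at 8.17, as high as the day 7 pools (8.09 to 8.28), and the others between 6.91 and 7.40. The call was lost in HE in 4 of the leave-one-out fits, with adjusted p up to 0.0860, and in SE in all but those without day 0 HE replicate 2 or day 0 SE replicate 2. SLC4A1AP, named for its binding to an anion exchanger and not a carrier itself, fell by 0.49 in HE (0.0263) and lost the call without day 7 HE replicate 2 (-0.36, limma adjusted p = 0.190), day 0 HE replicate 1 (0.0550) or day 0 HE replicate 3 (0.0786). The mitochondrial sodium-calcium exchanger SLC8B1 rose by 0.97 in HE and 1.09 in SE (0.0192 and 0.00540), and its HE call was lost without day 0 HE replicate 3 (0.0579) or day 7 HE replicates 1 (0.0562) or 2 (0.106).

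Nucleoside carriers of 2 genes rose. Of 5 kept probe sets for 3 genes, 4 rose in HE and 4 in SE, and 0 fell, against 21.8% and 26.0% of all kept probe sets that rose. Of the 4, 3 were of SLC28A3. SLC28A3 (CNT3, the sodium-coupled concentrative nucleoside transporter) had 3 probe sets, which agreed in direction and differed in size. The largest change was in the dimmest on day 0, where day 0 values were 3.46, 4.20 and 5.05 in HE and 4.31, 3.00 and 4.26 in SE, against 8.92 and 8.38 in day 7 HE and 8.12, 8.63 and 8.49 in day 7 SE. It rose by 4.41 ± 0.49 and 4.56 ± 0.44 (limma adjusted p = 6.36e-05 and 1.83e-05), from day 0 pools of which 4 of 6 were above the filter; in SE, where the day 0 mean was under it, the rise was at least 21.3-fold against the filter level. The other probe sets rose by 3.24 and 2.48 in HE and by 2.74 and 1.86 in SE, and the mean of all 3 gave 3.38 and 3.05.

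SLC29A2 (ENT2, an equilibrative nucleoside transporter) rose by 1.58 ± 0.31 in HE (limma adjusted p = 0.00212; 3.00-fold) and by 1.88 ± 0.27 in SE (3.00e-04; 3.67-fold), from 3.82 to 5.04 on day 0 to 5.99 to 6.41 on day 7. Its relative SLC29A1 (ENT1) had differences of -1.25 ± 0.57 and -0.86 ± 0.51 and did not pass (limma adjusted p = 0.0997 and 0.183). Its day 7 HE pools stood at 2.48 and 4.63.

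Both kept carriers that fill secretory vesicles fell. SLC17A9 (VNUT, which loads vesicles with ATP) was at 6.07, 8.06 and 6.26 in day 0 HE and at 7.88, 9.24 and 7.53 in day 0 SE. All day 7 pools were under 4, at 3.55 and 3.34 in HE and 3.41, 3.49 and 3.82 in SE. The fitted differences were -3.35 ± 0.60 and -4.64 ± 0.54 (limma adjusted p = 0.00138 and 6.51e-05), which is at least 6.94-fold in HE and at least 18.6-fold in SE against the filter level. It had the widest spread of any kept member in endometrium (SD within groups 0.77, against a median of 0.30 over the members), and without day 0 HE replicate 2 the fitted HE value was -2.72 and the bound at least 4.48-fold. The smaller HE than SE change gave an interaction of -1.29 that did not pass (limma adjusted p = 1.00).

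SLC18A2 (VMAT2, which loads vesicles with monoamines) fell by 1.06 ± 0.28 in HE and by 1.48 ± 0.25 in SE (limma adjusted p = 0.0116 and 7.54e-04). In HE the day 7 pools were 7.07 and 8.11, and without replicate 1 the difference was -0.53 and no longer called (limma adjusted p = 0.114). SLC17A5 (sialin, which exports sialic acid from lysosomes) had differences of 0.61 and 0.34 and did not pass.

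Of 2 kept phosphate carriers 1 passed, in HE. SLC20A1 (PiT1, a sodium-phosphate cotransporter) rose by 0.61 in HE (limma adjusted p = 0.0264) and differed by 0.40 in SE (0.0779). The HE call was lost without any 1 of day 0 HE replicates 1 (0.0505) and 2 (0.0797) and day 7 HE replicates 1 (0.0564) and 2 (0.150). SLC20A2 (PiT2) had differences of 0.23 and -0.22, neither of which passed.

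Nucleotide sugar and related Golgi carriers, which supply the substrates of glycosylation, moved in both directions. The background called was 45.0% of all kept probe sets in HE and 50.1% in SE. Of 19 kept probe sets for 13 genes, 3 rose, 5 fell and 11 did not pass in HE, with the same counts in SE. Among those that did not pass, SLC35A1 (CMP-sialic acid) had differences of -0.18 and -0.61, SLC35A2 (UDP-galactose) -0.26 and -0.63, SLC35B2 (the sulphate donor PAPS) -0.27 and -0.11, and SLC35D2 0.04 and -0.06. SLC35C1 (GDP-fucose) fell by 0.79 ± 0.22 in HE (limma adjusted p = 0.0144) and by 1.29 ± 0.20 in SE (3.91e-04). It went from between 8.58 and 9.52 on day 0 to between 7.66 and 8.03 on day 7, and its HE call was lost without day 7 HE replicate 2 (-0.61, limma adjusted p = 0.122). SLC35A3 (UDP-N-acetylglucosamine) passed in SE only, at -0.63 (limma adjusted p = 0.0463; -0.50 and 0.143 in HE).

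Other members of the family also changed. Both probe sets of SLC35E3 fell, with all limma adjusted p at or under 1.91e-04. The brighter one fell by 1.70 ± 0.22 in HE and by 1.88 ± 0.20 in SE, from between 7.61 and 8.34 on day 0 to between 5.83 and 6.56 on day 7. The dimmer one was at 2.15 to 2.63 on day 7, under the filter, so its fitted differences of -2.34 and -1.78 stand for falls of at least 1.96-fold in HE and at least 1.10-fold in SE. Both probe sets of SLC35E2B rose, by 0.88 and 1.35 in HE and 0.87 and 1.19 in SE. SLC35F6 fell by 1.19 and 1.26. The 4 kept probe sets of SLC35A5 did not agree in sign: in HE their differences were 0.35, 0.29, -0.73 and -0.04, of which only -0.73 passed (limma adjusted p = 0.0398), so no direction is given for that gene.

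Single members of other families changed as well. SLC66A3, a membrane protein of the PQ-loop family, rose by 1.65 ± 0.26 in HE (limma adjusted p = 6.77e-04; 3.14-fold) and by 1.96 ± 0.24 in SE (8.35e-05; 3.90-fold), from 8.65 to 9.36 on day 0 to 10.33 to 11.13 on day 7. SLC66A1, which exports cationic amino acids from lysosomes, fell by 0.68 in SE (0.0169) and lost that call without day 0 SE replicate 1 (0.0610) or day 7 SE replicate 2 (0.0615). SLC10A3 rose by 0.94 and 1.17 (0.00145 and 1.40e-04). SLC22A5 fell by 0.89 in HE and 1.11 in SE (0.0253 and 0.00441), and its HE call was lost without day 0 HE replicates 1 (0.0577) or 2 (0.0654) or day 7 HE replicate 2 (-0.55, limma adjusted p = 0.230).

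Among sugar phosphate and related carriers 0 of 3 passed in HE, while in SE 1 rose and 1 fell. SLC37A1, a glucose-6-phosphate and phosphate exchanger of the endoplasmic reticulum, fell by 1.68 ± 0.35 in SE (limma adjusted p = 0.00299) and differed by -1.04 ± 0.40 in HE (0.0563). SLC33A1, the acetyl-CoA carrier of the same membrane, rose by 0.70 in SE (0.0158), a call lost without day 0 SE replicate 3 (0.0596) or day 7 SE replicate 3 (0.0636). The riboflavin carrier SLC52A2 was at -0.42 and -0.49 and did not pass.

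**Figure D3:**
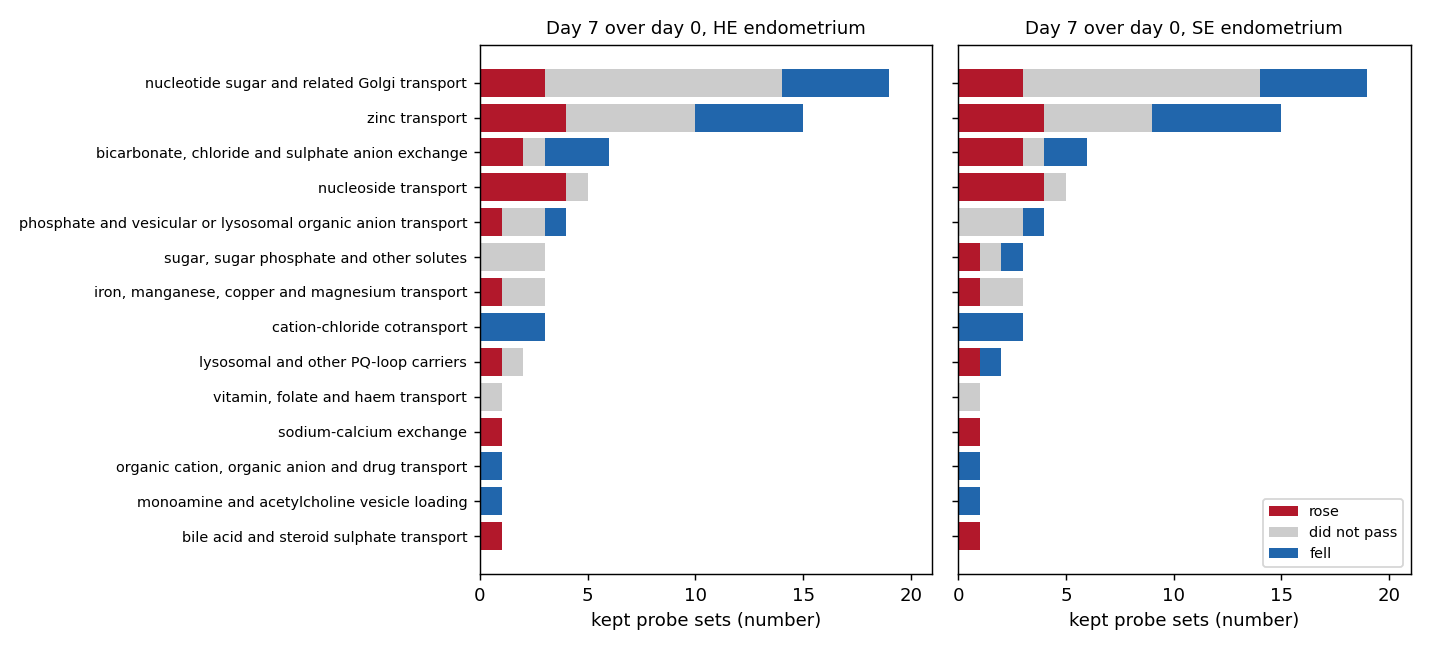
Number of kept SLC probe sets (horizontal axis) that rose, fell or did not pass limma's test at an adjusted p under 0.05 between day 0 and day 7, by role, in HE endometrium (left) and SE endometrium (right). Nucleoside carriers show 4 that rose and 0 that fell, cation-chloride cotransporters 3 that fell, and zinc carriers both directions.

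Genes that work beside these carriers were read from a list of ion and metal handling partners, of which 30 of 55 were measured in endometrium. From day 0 to day 7, 5 rose, 10 fell and 15 did not pass in HE, with a median of -0.40. In SE 7 rose, 15 fell and 8 did not pass, with a median of -0.72. Among all kept probe sets 21.8% rose and 23.2% fell in HE, and 26.0% rose and 24.1% fell in SE. PDZK1, a scaffold that anchors apical carriers, rose by 4.31 in HE and 6.45 in SE (limma adjusted p = 5.29e-07 and 2.10e-08). CA13, a carbonic anhydrase, rose from 3.05 to 3.64 over the day 0 pools, all under the filter, to 9.04 to 10.06 on day 7 (limma adjusted p = 1.65e-07 and 7.79e-08), which is at least 54.3-fold in HE and at least 40.8-fold in SE against the filter level. ATP6V1E1, a subunit of the vacuolar proton pump, rose by 0.94 and 0.99. CP, the copper-binding ferroxidase ceruloplasmin, fell from 8.16 to 11.66 on day 0 to 2.84 to 4.25 on day 7, where 1 of 5 pools was above the filter, or at least 37.3-fold and at least 53.4-fold (limma adjusted p = 3.26e-04 and 8.96e-05). STC1, a hormone of calcium and phosphate balance, fell from 5.26 to 7.31 to pools all under the filter (2.54 to 3.01), or at least 8.29-fold and at least 3.14-fold (1.02e-05 and 2.94e-05). FXYD5, which modulates the sodium pump, fell by 3.27 and 3.78 (5.20e-04 and 7.48e-05), and the ferritin heavy chain gene FTH1 by 1.07 and 1.02.

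Some RNA markers of cell types in the brushes also differed between the days. The marker counts stand beside a background of 45.0% of all kept probe sets called in HE and 50.1% in SE. Of 7 measured epithelial markers, 1 rose (CDH1) and 5 fell in HE, and 1 rose and 6 fell in SE. The mean log2 value of the epithelial markers ran from 11.02 to 11.20 in day 0 HE and from 11.24 to 11.43 in day 0 SE. On day 7 it ran from 10.10 to 10.22 in HE and from 9.81 to 9.88 in SE. Of 7 stromal markers 0 passed in HE and 1 fell in SE, of 5 lymphocyte markers 2 rose in each, of 4 macrophage markers 2 rose and 1 fell in HE and 1 rose and 1 fell in SE, and of 3 markers of ciliated cells 0 passed in HE and 1 fell in SE. The single measured endothelial marker, CLDN5, rose from 2.35 to 2.42 on day 0, under the filter, to 4.90 or more in every day 7 pool (at least 6.07-fold and at least 3.43-fold against the filter level), while PECAM1, VWF and TEK were not kept; GYPC was the single erythrocyte marker kept and rose in SE. Of 3 measured neutrophil markers 1 fell in HE and in SE, S100A12 (-2.83 and -4.28, limma adjusted p = 0.0189 and 9.10e-04). The list had medians of -0.72 and -2.93, and its mean level on day 7 ran from 5.44 to 7.59 in HE and from 6.04 to 7.61 in SE. Among the RNA controls, the 3′ to 5′ difference of GAPDH went from 0.06 to 0.14 in day 0 HE to 0.27 to 0.39 in day 7 HE, and that of EF1A from -3.27 to -3.11 to -3.06 to -2.94, while in SE the days overlapped in both. The part of cell makeup and of RNA quality in the changes of the transporters was not tested, and in such bulk samples fewer cells of a type and less RNA per cell cannot be told apart.

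Between SE and HE cows on day 0, none of the 65 members passed. limma's test called 0 (background 0.0224%), and at an unadjusted p under 0.05 there were 7 (10.8%, against 7.60% of all). The pools of HE and SE did not overlap in 6 members (9.23%), below the background of 12.8%. For 51 of 65 members the 95% interval of the difference lay within 1 log2 unit of 0, and the median interval reached 0.52 to either side.

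The members with the smallest p on day 0 were both zinc importers, and they pointed in opposite directions. SLC39A14 was higher in each SE pool (4.72, 5.25 and 4.31) than in any HE pool (3.29, 3.69 and 4.04), by 1.09 ± 0.25 (limma adjusted p = 0.435; 95% interval 0.54 to 1.63), at a level near the filter. SLC39A8 was lower in each SE pool (8.42, 8.95 and 7.92) than in any HE pool (9.84, 9.24 and 9.54), with a difference of -1.11 ± 0.25 (limma adjusted p = 0.435; interval -1.67 to -0.55). The dimmer probe set of SLC35E3 was lower in SE without overlap (-0.83 ± 0.22, limma adjusted p = 0.565). SLC17A9 was higher on average (1.42 ± 0.54, adjusted p = 0.610 by limma), though the HE pool at 8.06 lay above 2 SE pools. SLC39A13 differed by 0.60 and SLC30A1 by -0.55, with overlapping pools.

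**Figure D4:**
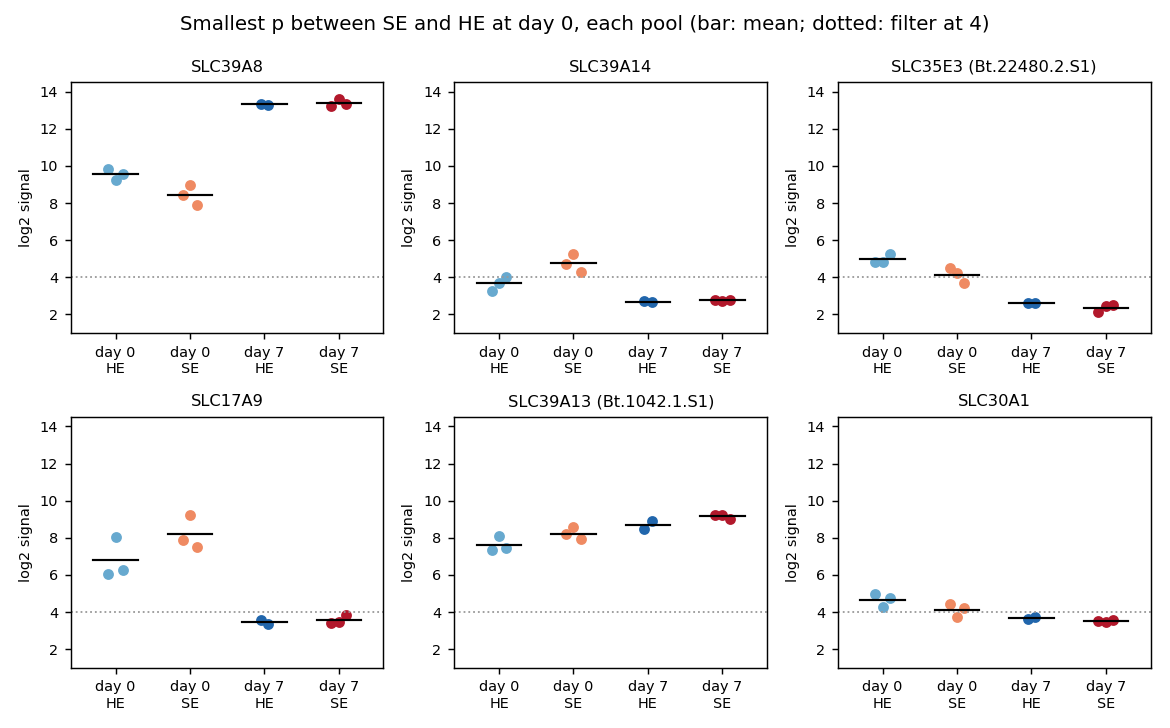
Log2 signal of each endometrium pool for the 6 members named by the smallest p between SE and HE on day 0; points are pools, bars group means, and the dotted line the filter at 4. SLC39A14 and SLC39A8 show HE and SE pools apart on day 0, in opposite directions, and the day 7 pools of SLC39A8 all lie between 13.21 and 13.58.

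Markers of neutrophils, the cells that define SE, moved with these day 0 groups. The 3 measured ones (S100A12, S100A8 and S100A9) were higher on average in SE, with a median difference of 2.84, and their mean level ran from 6.75 to 9.75 in HE and from 9.39 to 12.38 in SE. CXCR2, CSF3R and MMP9 were not kept, nor was SLC11A1, the metal carrier of phagocytes, on any array group. Stromal, macrophage and ciliated cell markers were also higher on average in SE (7 of 7, 4 of 4 and 3 of 3), and the 3′ to 5′ difference of the EIF4E control was 3.88 to 4.27 in SE against 3.70 to 3.85 in HE, and that of EF1A -3.10 to -2.93 against -3.27 to -3.11. Day 0 SE replicate 2 stood apart, with a mean correlation of 0.961 to the other day 0 arrays against 0.975 to 0.979 for those; without it SLC39A8 was at -1.37 (limma adjusted p = 0.150) and SLC39A14 at 0.84 (limma adjusted p = 0.409), and the count of calls was still 0. The part of these in the SE and HE values was not tested. The partner list held 1 gene called in this comparison, PDZK1, lower in SE (-2.01 ± 0.19, limma adjusted p = 0.0139).

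On day 7 no member passed between SE and HE either. limma called 0 (background 0%), 3 had an unadjusted p under 0.05 (4.62%, against 3.55% of all), and 13 had pools that did not overlap (20.0%, against 16.3%). The smallest p belonged to differences of -0.75 ± 0.28 in SLC18A2, -0.84 ± 0.33 in 1 probe set of SLC28A3 and -0.67 ± 0.27 in 1 probe set of SLC35E2B (all with limma adjusted p = 1.00). The SLC28A3 pools were 9.06 and 8.95 in HE and 7.76, 8.42 and 8.31 in SE and so did not overlap, and a further probe set of the gene was also lower (-0.66). Those of SLC18A2 did overlap, at 7.07 and 8.11 in HE and 6.81, 7.07 and 6.64 in SE. Among positive differences the smallest p belonged to SLC39A13 (0.46), SLC12A4 (0.53) and SLC66A3 (0.33). The SLC12A4 value was -0.12 without day 7 HE replicate 1 and 1.18 without replicate 2, so no direction is given for it. SLC39A8 and SLC39A14, apart on day 0, differed by 0.06 and 0.08 on day 7. The EIF4E control difference was again higher in SE (4.05 to 4.52) than in HE (3.67 to 3.91), and its part was not tested.

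The interaction of status and day, the test of whether the change to day 7 differed between SE and HE, called 0 of 65 members (background 0%), with 2 at an unadjusted p under 0.05 (3.08%, against 3.92% of all). These were SLC39A8 (1.17 ± 0.38, limma adjusted p = 1.00) and SLC39A14 (-1.01 ± 0.37, limma adjusted p = 1.00). The fitted changes of 54 members differed by less than 0.5 log2 units between the statuses, and those of 62 by less than 1. The 95% interval of the interaction lay within 1 log2 unit of 0 for only 34 of 65 members. At the median it reached 0.78 to either side. This contrast and the day and status contrasts share their arrays, so their values are not independent.

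In blastocysts limma called 0 of 57 members between SE and HE donors (background 0%), and 9 had an unadjusted p under 0.05 (15.8%, against 9.34% of all). Groups did not overlap in 19 members (33.3%, against 25.0%), 10 with higher values in SE (17.5%, against 12.4%) and 9 with lower values (15.8%, against 12.6%). The count by unadjusted p and that by overlap both hold 1 probe set of SLC10A1 and 1 of SLC35A5. Each of these was kept through the pools of 1 group alone. The median absolute difference was 0.36, against 0.25 for all kept probe sets. With 2 pools against 3 the intervals were wide, reaching 0.72 to either side at the median, and for only 25 of 57 members did they lie within 1 log2 unit of 0.

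SLC39A2, the importer that fell most between the days in endometrium, had values of 6.13 and 6.54 in the HE blastocyst pools and of 9.91, 8.15 and 8.65 in the SE pools, a difference of 2.56 ± 0.58 (limma adjusted p = 0.403; 95% interval 1.02 to 4.10). Each SE pool was above both HE pools. SLC39A8 was at 11.03 and 10.94 in HE and at 12.29, 11.55 and 11.66 in SE, also without overlap (0.85 ± 0.27, limma adjusted p = 0.476). A further zinc importer, SLC39A11, was lower in SE without overlap (-0.90 ± 0.39, limma adjusted p = 0.576), and SLC39A14, near background in endometrium, was kept on all 5 arrays with overlapping groups (-0.25). SLC30A5 was at 11.32 to 11.59 in all pools.

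Outside the zinc carriers the smallest p belonged to SLC10A1 (NTCP, a sodium-bile acid cotransporter), at 2.20 and 2.60 in HE and 4.46, 3.57 and 4.52 in SE (1.78 ± 0.36, limma adjusted p = 0.403), where only 2 SE pools passed the filter of 4. Its second kept probe set differed by 1.70, with 1 HE and 1 SE pool both at 4.93. SLC28A3 was higher in SE in 1 of 3 probe sets without overlap (0.96 ± 0.28, limma adjusted p = 0.443), and SLC66A3 was at 9.28 and 9.84 against 11.09, 10.27 and 10.40 (1.02 ± 0.34, limma adjusted p = 0.493). SLC4A2 was at 6.52 and 6.37 in HE and at 7.31, 6.84 and 7.47 in SE, again without overlap (0.76 ± 0.23, limma adjusted p = 0.464). SLC13A4, a sulphate carrier, had the largest difference (2.79 ± 1.08) and the widest spread (SD within groups 1.43), from 5.79 and 3.18 in HE to 8.40, 7.35 and 6.06 in SE.

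Lower in SE blastocysts were SLC31A2 (8.12 and 7.87 against 7.55, 7.14 and 7.44; -0.62 ± 0.18, limma adjusted p = 0.457), 1 probe set of SLC35A5 (-0.98 ± 0.23, limma adjusted p = 0.403; all 3 SE pools under 4) and 1 probe set of SLC35E2B (-0.59 ± 0.20, limma adjusted p = 0.513). Each of these had groups that did not overlap. SLC35E3 differed by -1.79 ± 0.74, with SE pools as far apart as 4.12 and 6.38. SLC31A1, the copper importer, lay between 12.51 and 13.19, and SLC20A1 between 10.95 and 11.72, with overlapping groups.

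**Figure D5:**
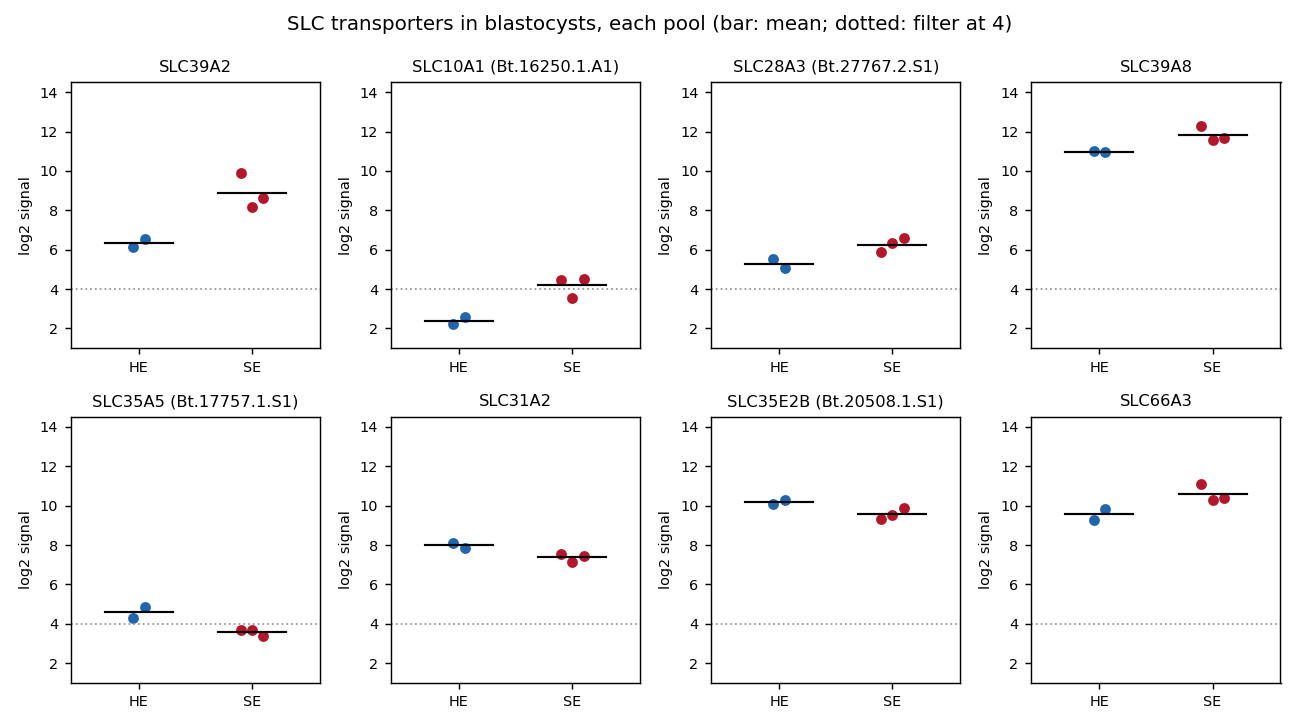
Log2 signal of each blastocyst pool for 8 of the 9 members with an unadjusted p under 0.05 between SE and HE donors; points are pools, bars group means and the dotted line the filter at 4. In all 8 the 2 HE and 3 SE pools do not overlap, and 0 of them passed after adjustment.

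Some values were exact repeats of each other. In endometrium 4 of 65 kept members (6.15%, against 3.07% of all kept probe sets) had the same value on at least 3 of 11 arrays, namely SLC35B1, SLC35B2, 1 probe set of SLC35A5 and SLC35F5, which read 10.52 on 4 arrays. In blastocysts 14 of 57 kept members (24.6%) had the same value on at least 2 of 5 arrays, against 30.1% of all kept probe sets, and 4 on at least 3, which were SLC39A13, SLC4A11, SLC35A4 and 1 probe set of SLC35E2B, whose 5 arrays all read 6.11. A spread of 0 there is no measure of how alike the pools were. The 3′ to 5′ difference of the GAPDH control was 5.47 to 5.85 in the SE pools against 4.97 to 5.11 in the HE pools, and that of EF1A was 2.07 to 2.36 against 1.41 to 2.03; their part in the blastocyst values was not tested. Of the epithelial markers 8 of 8 had a higher mean in SE, of 3 trophectoderm markers 2 and of 3 markers of inner cell mass and hypoblast 1, with 0 passing. No neutrophil, macrophage, ciliated cell or erythrocyte marker was kept in blastocysts.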

How the data were processed

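The authors deposited log2 signals of the GCRMA type from Affymetrix scans. GCRMA and limma are the tools listed, unversioned, in the submitters' processing notes. RNA (15 ng per pool) was amplified in 2 rounds, per the labels' protocols, which speak of 3 pools per group. The HE blastocyst replicates called 1 and 2 here are pools 2 and 3 by title. Batches and the assignment of cows to pools are not given in the sources used here.

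Here, limma 3.58.1 in R 4.3.3 was fitted to group means over all 11 endometrium arrays and, separately, the 5 blastocyst arrays, on the kept probe sets (log2 above 4 on 2 or more arrays; 13421 and 11014). Tests were two-sided, with Benjamini-Hochberg adjustment over all kept probe sets and a threshold of 0.05; fold changes and 95% intervals come from those fits. The fits were tested on simulated data. Figures used Python 3.11.15 and matplotlib 3.10.9. Of the platform's 24128 probe sets, 112 controls were left out, 86 had several symbols and 10638 no gene named here; all 98 member gene IDs were found in a RefSeq table with 0 symbols changed. No genome was used here, so no coordinates or sequences are given.

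Members, roles and lists were chosen with earlier results of these data known, and 2 families were given their role after the symbols were read. Named were, per comparison, the 10 largest rises and falls past the threshold (where fewer than 3 passed, the 3 of smallest p as values), up to 6 members per role, and the list partners of smallest p; others are named as neighbours in role and by overlap, after their values were seen. Whether replicate numbers pair the pools is not known, and the main fits used no pairing. Of 17 same-number pairs, 3 had deviations correlated above 0.1 (range -0.27 to 0.24). That check cannot tell paired from unpaired pools, since groups held 2 or 3 arrays and pairs of unlike number were not compared. Each p-value sets a difference of group means against the spread between pools.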

Additional observations from a re-analysis of the deposited data

How the results depend on the processing

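Counts of members called kept within 1.5 times their value in each alternative run: no filter, a filter at 5, further quantile normalization, array weights, an intensity trend, each comparison on its own arrays, the mean over a gene's probe sets, and leaving out each pool. With the replicate number as a block, though it is not known to pair the pools, 34 members were called in HE and 38 in SE between day 0 and day 7. In the other comparisons it called 0. Leaving out 1 pool gave 29 to 39 calls in HE, 36 to 41 in SE and 27 to 37 in both; the lowest HE count came without day 7 HE replicate 2, when the lone pool left is assumed to vary like the others. Between SE and HE, in endometrium and in blastocysts, and for the interaction, every alternative called 0. Of 66 called values of named members, 55 kept their call in every alternative and 11 lost it in at least 1, SLC4A2 in SE most often (12 of 19). The sign turned in 1 value: SLC12A4 between SE and HE on day 7 was 0.53 over all pools, -0.12 without day 7 HE replicate 1 and 1.18 without replicate 2; the cause was not tested. Signal limits the members whose day 7 pools were under the filter level, among them SLC39A2, SLC4A4 and SLC17A9: their fitted falls are no bounds, and only the folds against the filter level are.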
